A study of Mus musculus with 502 samples.

Results

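LNCap silencers that lay far from every silencer of K562 and 293T were chosen by position. A listed LNCap silencer on chromosomes 1 to 22, between 50 and 300 bp wide, was counted as far when no silencer of either other list lay within 10 kb of its edges. This rule was met by 17312 of 128674 LNCap silencers of that width and placement (13.5%, 95% Wilson interval 13.3 to 13.6), out of 397136 silencers analysed in the 3 lists. The remaining 111362, with a K562 or 293T silencer within 10 kb, are called near. The members were thus selected on where the peaks of 3 lists fall, so their distances, and any property that follows from the local density of the lists, are given as a description and not as a finding. With 1 list per line there was no replicate of a list, and no difference below carries a test. Wilson intervals cover counting error alone.

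A silencer is a stretch of DNA that lowers transcription from a promoter, usually by binding repressor proteins that recruit chromatin-modifying or histone-deacetylating complexes. Silencers are the repressive counterpart of enhancers and can act in one cell type and not in another, because the repressors they bind differ between cells. In a plasmid reporter a fragment is read outside its native chromatin, so the readout reflects the sequence and the proteins of the host cell, not the state of the locus itself.

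The data came from Ss-STARR-seq, in which sheared genomic fragments, longer than most listed silencers, are cloned into a reporter plasmid and transfected, and plasmid DNA (input) and transcribed RNA (output) are sequenced. The series holds 461 output RNA and 41 input DNA libraries, of which 180 output libraries are from K562 (a chronic myeloid leukaemia line), 40 input libraries are from LNCap (an androgen-responsive line from a prostate carcinoma metastasis), 1 input library is from 293T (a line derived from embryonic kidney cells), and the remaining output libraries are from LNCap and 293T. All 3 lines were grown in DMEM with serum, the shared protocol also names an induction medium without saying which libraries it concerns, and no label gives a treatment, time or genotype that sets libraries of a line apart. The labels call every library mouse, whereas the named lines and the build, hg38, are human, so the lists were read as human. Each line entered as 1 list of silencers with the authors' activity score, so the spread between libraries and the read depth behind a silencer are unknown. A silencer that a list lacks cannot be told apart from one that was missed in that line.

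By the same rule 13.5% of K562 silencers (16902 of 125516, interval 13.3 to 13.7) and 19.3% of 293T silencers (22739 of 117517, interval 19.1 to 19.6) lay far from both other lists. The LNCap share was therefore close to that of K562 and below that of 293T. The lines also differ in their numbers of libraries, and the part of this in the shares was not tested. Of the LNCap silencers, 29.5% had no K562 silencer within 10 kb and 39.5% had no 293T silencer within 10 kb. Those lacking K562 alone numbered 20610, and those lacking 293T alone numbered 33541. The far set was accordingly the smallest of the 4 classes that the 2 distances give, beside 57211 silencers within 10 kb of both lists.

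Most members lay not far beyond the threshold. The distance from a member to the nearest K562 or 293T silencer had a median of 14926 bp (quartiles 12000 and 20036 bp), against a median of 1954 bp over all LNCap silencers of this width. Of the members, 4349 (25.1%) were over 20 kb from both lists, 1316 (7.6%) over 30 kb, 196 (1.13%) over 50 kb and 16 over 100 kb. The nearest foreign silencer was from K562 for 8922 members (51.5%, interval 50.8 to 52.3) and from 293T for 8375, with 15 equally distant. The 2 other lists thus bounded the members about equally often. Around a member, the stretch free of K562 and 293T silencers had a median length of 43610 bp (quartiles 33200 and 59893 bp).

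The threshold did not mark a step in the lists. The members just inside it, at 10001 bp, included a 56 bp silencer on chromosome 19 (5423744 to 5423800, score 2.0) and a 100 bp silencer on chromosome 8 (23503461 to 23503561, score 2.8). Just outside it, at 10000 bp, lay for example a 250 bp silencer on chromosome 1 (57324351 to 57324601, score 2.1) and a 50 bp silencer on the same chromosome (76547701 to 76547751, score 2.0). Scores of at least 3 made up 9.08% of the 2786 silencers between 9 and 10 kb from another list and 9.03% of the 2392 between 10 and 11 kb.

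High activity scores were less frequent among the far silencers than among the near ones. The score is the authors' value for a silencer, with 2 as the lowest value listed; its scale is not stated. Its median was 2.2 in far and 2.3 in near silencers, with upper quartiles of 2.5 and 2.6. A score of at least 3 was held by 1458 of 17312 members (8.42%, interval 8.02 to 8.84) and by 12.3% of near silencers (interval 12.1 to 12.5). At the low end, 25.3% of members had the lowest score of 2.0, against 20.7% of near silencers. Scores of at least 4 were found for 239 members (1.38%) and 2.35% of near silencers, and scores of at least 5 for 44 members (0.254%) and 655 near silencers (0.588%).

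The difference ran in 1 direction over most of the genome. On 21 of 22 autosomes the percentage of scores of at least 3 was lower in far than in near silencers, by a mean of -3.84 percentage points (far minus near, SD over autosomes 1.58). The exception was chromosome 22, with 10.5% of 257 far silencers and 10.4% of near silencers. Chromosome 4 had the highest share among members, 11.4%, beside 12.7% of its near silencers. The lowest share was on chromosome 7, with 7.25% of members and 12.7% of near silencers. The autosomes are parts of the same list and are not independent cultures.

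Silencers that overlapped another list made up part of that difference. LNCap silencers that overlapped or touched a K562 or 293T silencer scored at least 3 in 19.1% of 24644 cases (interval 18.6 to 19.6). Without those, the near silencers stood at 10.4% (interval 10.2 to 10.6), which still lay above the 8.42% of the members. Past overlap the share was 12.0% up to 1 kb (interval 11.6 to 12.4) and 9.78% between 1 and 5 kb (interval 9.49 to 10.1). It was 9.34% between 5 and 10 kb (interval 8.95 to 9.75) and 8.69% between 10 and 20 kb (interval 8.21 to 9.18). Between 20 and 50 kb it was 7.61% (interval 6.84 to 8.46). From 1 kb on each value was lower than the one before, but the intervals of neighbouring classes overlapped. Beyond 50 kb it was 8.16% on 196 silencers, with an interval of 5.09 to 12.8 that takes in the share of every other class except overlap.

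**Figure D1:**
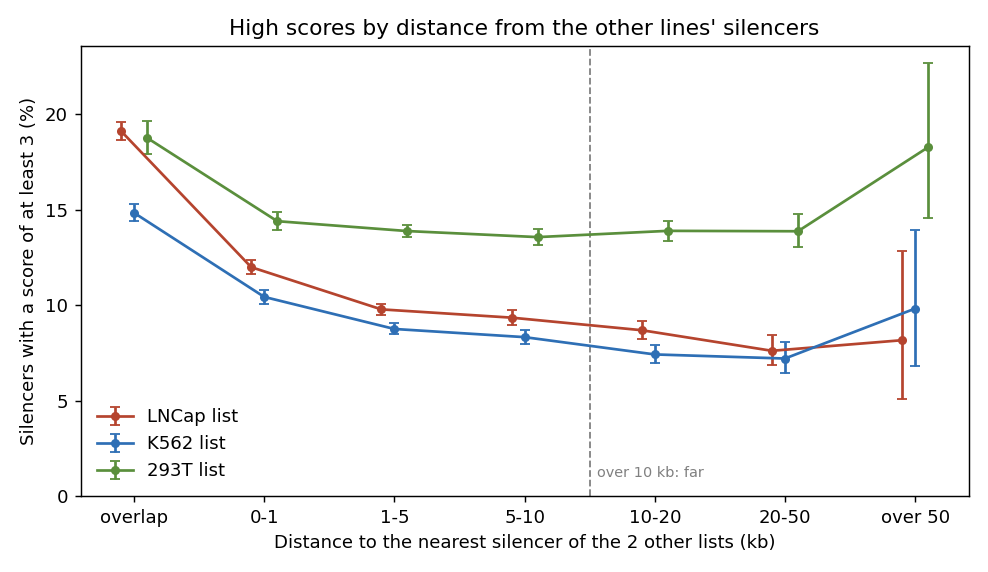
Percentage of silencers with a score of at least 3 (y axis) by distance in kb to the nearest silencer of the 2 other lists (x axis), for the LNCap, K562 and 293T lists; bars are 95% Wilson intervals and the dashed line marks 10 kb. The LNCap share falls from 19.1% at overlap to 7.61% at 20 to 50 kb, whereas the 293T share stays near 13.9% from 1 to 50 kb.

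Far silencers of the other lines were set beside the members to see whether the lower scores were common to all lists. In K562, scores of at least 3 were found for 7.41% of far silencers (interval 7.02 to 7.81) and 10.4% of near silencers (interval 10.2 to 10.6). In 293T the values were 13.9% (interval 13.5 to 14.4) and 14.3% (interval 14.1 to 14.5), and the intervals overlapped. The share was lower in far silencers on 21 of 22 autosomes in K562 and on 14 of 22 in 293T, where far minus near averaged -0.546 percentage points (SD 1.44). The near groups differed in make-up: silencers overlapping or touching another list numbered 24644 in LNCap, 24087 in K562 and 7930 in 293T. Without them, near silencers stood at 9.17% in K562 (interval 8.97 to 9.36) and 13.9% in 293T (interval 13.7 to 14.2). Far LNCap silencers therefore resembled far K562 silencers more than far 293T silencers in how their scores stood against near ones. Whether the 3 lists differ in this respect was not tested, and score levels are not compared between lists, since their scale may differ.

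Within LNCap the share differed by which of the other lists was close. Of silencers within 10 kb of both lists 13.4% scored at least 3 (interval 13.1 to 13.7), and of those near K562 alone 11.8% (interval 11.5 to 12.2). Silencers near 293T alone reached 9.90% (interval 9.50 to 10.3). Members, near neither, had the lowest share. The 4 intervals did not overlap. The classes near a list kept silencers that overlapped or touched another list, of which 19.1% scored at least 3. These were not set aside here, so their part in the differences between the classes was not tested.

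Members were slightly narrower than near silencers as a whole, but not than those without overlap. Exactly 50 bp was the width of 65.4% of members (interval 64.7 to 66.1) and 61.5% of near silencers (interval 61.2 to 61.8), and the mean width was 78.6 bp (SD 51.4, n = 17312) against 84.6 bp (SD 57.6, n = 111362). Members were more often 50 bp wide on 21 of 22 autosomes; on chromosome 19 the shares were 59.4% of 256 members and 59.6%. Near silencers that overlapped no other list were 50 bp wide in 65.2% of cases (interval 64.9 to 65.6), so the width difference was not detectable once overlapping silencers were set aside. Together the members covered 1.36 Mb.

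Many members, but not all, followed a spacing of 50 bp. Starts at 0 or 1 modulo 50 made up 47.7% of members and 46.97% of near silencers. Between successive members up to 500 bp apart, the most frequent gaps were 50 bp (1063 of 17290 successive pairs) and 100 bp (352). Where both of a pair started off these positions and lay at most 200 bp apart, 726 of 786 pairs had the same start offset (92.4%, interval 90.3 to 94.02), against 2.97% of 4942 pairs over 1000 bp apart. Members close to each other thus often shared a start offset and may not be independent elements. The Wilson intervals given here nevertheless count each silencer as 1 trial, so they may be too narrow.

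Far silencers were also more isolated within their own list. The rule set no distance between LNCap silencers, but it leaves almost no room within 10 kb of a member for those that overlap another list. The isolation is thus not independent of the rule and is given as a description. The median distance from a member to the next LNCap silencer was 8255 bp (quartiles 1250 and 18667 bp), against 3650 bp for near silencers. Members with no other LNCap silencer within 10 kb numbered 7838 (45.3%, interval 44.5 to 46.02), compared with 26.5% of near silencers, and the share was higher on 22 of 22 autosomes (mean difference 18.8 percentage points, SD 4.2). Another LNCap silencer lay within 500 bp of 20.99% of members and 28.04% of near silencers. Isolation was likewise higher in far silencers of K562 (47.6% against 27.6%) and 293T (39.8% against 30.5%), which the same rule picked.

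The score difference was also computed within classes set after the lists were seen. Silencers were split into 6 classes by width (50 bp, or 51 to 300 bp) and by the distance to the next silencer of the same list (over 10 kb, 500 bp to 10 kb, within 500 bp). The share of scores of at least 3 was lower in far than in near LNCap silencers in 6 of 6 classes, and the intervals did not overlap in any of them. Near silencers here include those that overlapped another list, which were not set aside within the classes. It was 8.09% against 11.5% for isolated 50 bp silencers, the largest class with 5105 members. It was 12.3% of 2418 members against 16.3% for 50 bp silencers with a neighbour within 500 bp. The lowest share among members was 6.04%, for isolated silencers of 51 to 300 bp, against 9.74% of near ones. In K562 the direction was the same in 6 of 6 classes and in 293T in 4 of 6.

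**Figure D2:**
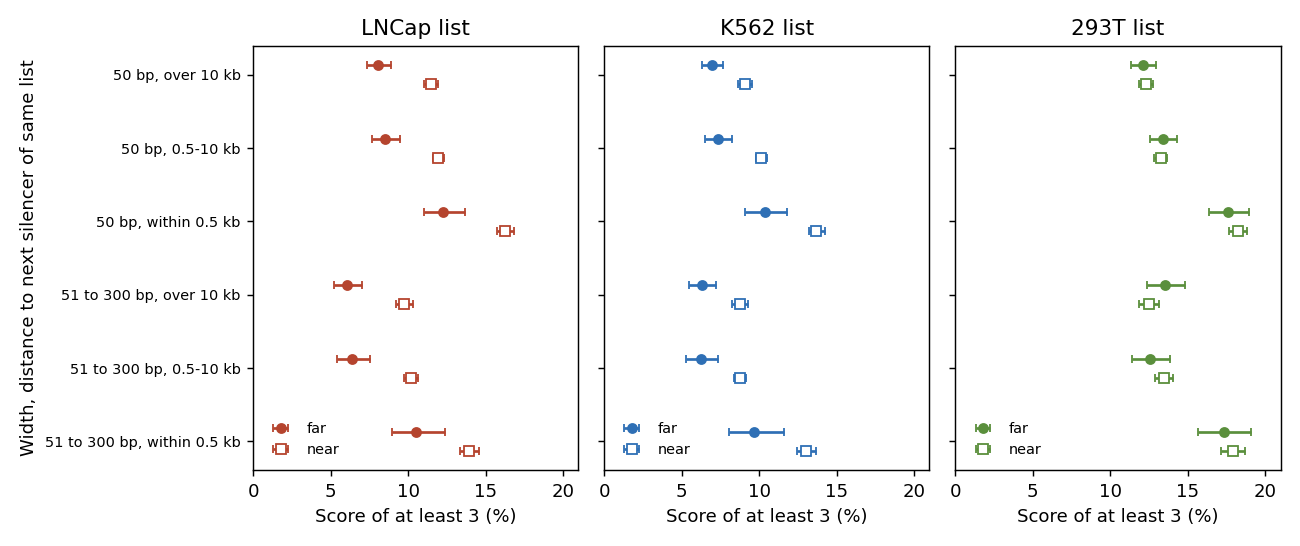
Percentage of silencers with a score of at least 3 (x axis) for far (filled circles) and near (open squares) silencers of each list, in 6 classes of width and of distance to the next silencer of the same list (y axis); bars are 95% Wilson intervals. In the LNCap panel each far value lies left of its near value, for example 8.09% against 11.5% in the top class, while in the 293T panel the bars overlap. Near silencers include those that overlap another list.

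The surroundings of the members were sparse in all 3 lists. Between 10 and 100 kb from their edges, outside the zone that the rule cleared, members had on average 47.4 LNCap, 45.6 K562 and 41.8 293T silencers per Mb. Near silencers had 64.01, 61.2 and 51.9 per Mb, so the far values were 0.741, 0.746 and 0.807 times the near ones. The lower density held on 22 of 22 autosomes for each list, with a mean ratio of 0.770 (SD 0.059) for LNCap, 0.770 (SD 0.072) for K562 and 0.822 (SD 0.060) for 293T. A rule that asks for a gap in 2 lists favours regions where those lists are thin. The rule did not use the LNCap density, and why it was lower as well was not tested.

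The LNCap density around members changed with distance. From 2 to 5 kb around members the LNCap list held 35.6 silencers per Mb, and from 5 to 10 kb it held 33.7, compared with 45.7 from 10 to 20 kb and 47.7 from 20 to 30 kb. Closer in it was higher, at 461 per Mb up to 200 bp, 83.7 from 200 to 500 bp and 43.8 from 500 bp to 1 kb, the member itself not counted. Around near silencers the LNCap density fell steadily outward, from 72.3 per Mb at 2 to 5 kb to 66.4 at 20 to 30 kb. Between 1 and 10 kb from a member, LNCap silencers were thus less dense than from 10 kb outward, whereas right beside a member they were denser. The rule leaves almost no room within 10 kb of a member for LNCap silencers that overlap another list. The part of the rule in the lower density between 1 and 10 kb was not tested. How uniquely reads map to these places, their base composition and the input coverage were not examined, and their part in this pattern was not tested.

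**Figure D3:**
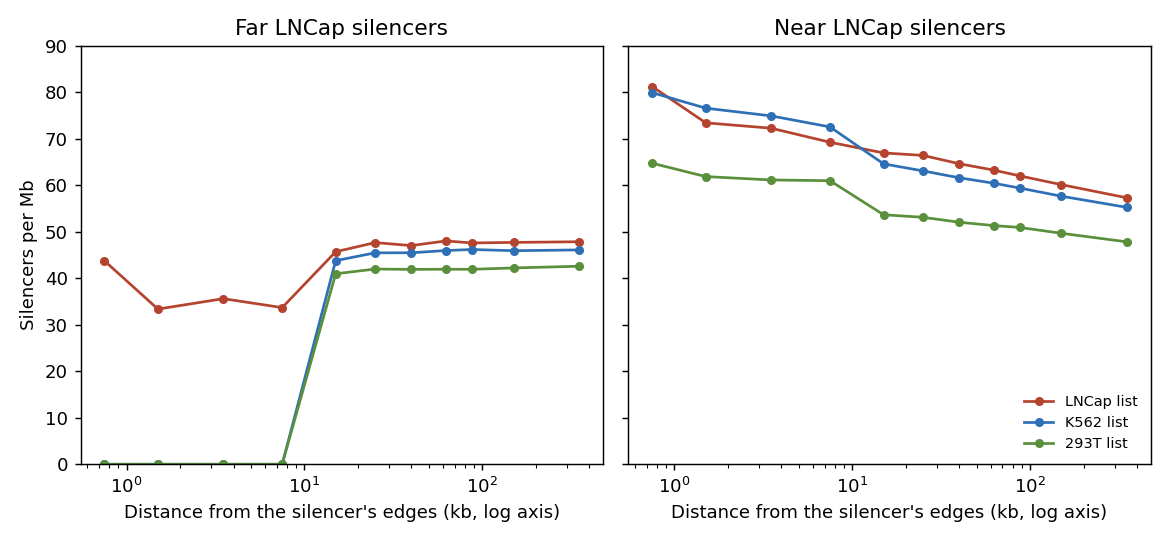
Mean density of LNCap, K562 and 293T silencers (per Mb, y axis) by distance from the edges of far (left) and near (right) LNCap silencers (kb, log axis). Inside 10 kb of far silencers K562 and 293T are at 0 by the rule and the LNCap density is 33.4 to 43.8 per Mb from 0.5 to 10 kb; from 20 to 30 kb LNCap is at 47.7 and K562 at 45.5 per Mb.

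Members were present on every autosome and were spread more evenly than the list as a whole. They numbered between 226 on chromosome 21 and 1602 on chromosome 2, and their density ran from 4.37 per Mb on chromosome 19 (exact Poisson interval 3.85 to 4.94) to 6.79 on chromosome 5 (6.42 to 7.18). The LNCap list itself ran from 30.9 per Mb on chromosome 21 to 93.7 on chromosome 19. Chromosome 19 carries many zinc finger gene clusters and is the most gene-rich human chromosome. It was the richest in LNCap silencers and had the lowest density of far ones. Its interval overlapped those of other chromosomes, such as chromosome 21 (4.85 per Mb, 4.23 to 5.52). It also held the most K562 and 293T silencers per Mb (145.9), which the rule uses.

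As a share of LNCap silencers, far ones were most frequent on chromosome 6 (16.96%, interval 16.1 to 17.9), chromosome 5 (16.4%, interval 15.6 to 17.2) and chromosome 21 (16.4%, interval 14.5 to 18.4). The intervals of these 3 overlap, and so do those of chromosomes 5, 21 and 1 (15.5%, interval 14.8 to 16.2). The lowest shares were 4.86% on chromosome 19 (256 of 5268, interval 4.31 to 5.47), 9.75% on chromosome 17 (505 of 5177, interval 8.98 to 10.6) and 11.7% on chromosome 18 (446 of 3817, interval 10.7 to 12.7). The shares of chromosomes 19 and 17 stood apart from each other and from the rest, whereas the interval of chromosome 18 overlapped that of chromosome 4 (12.3%, interval 11.6 to 12.98).

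The shares tended to be lower where the other lists were denser. The rule itself favours this direction, since it asks for no K562 or 293T silencer within 10 kb, so the values below are a description. K562 and 293T together held 145.9 silencers per Mb on chromosome 19, 103.8 on chromosome 17 and 99.4 on chromosome 18, but 78.2 on chromosome 6 and 56.99 on chromosome 21. Over the 22 autosomes, which share their libraries, Pearson's r between that density and the far share was -0.80 and Spearman's rho -0.60. Without chromosomes 17 and 19 they were -0.46 and -0.47 on 20 autosomes. Chromosome 22 went against the trend, with 63.5 foreign silencers per Mb and a far share of 12.7%. The far shares of K562 and 293T were also lowest on chromosome 19 (4.10% and 4.84%) and next lowest on chromosome 17 (8.03% and 10.5%).

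**Figure D4:**
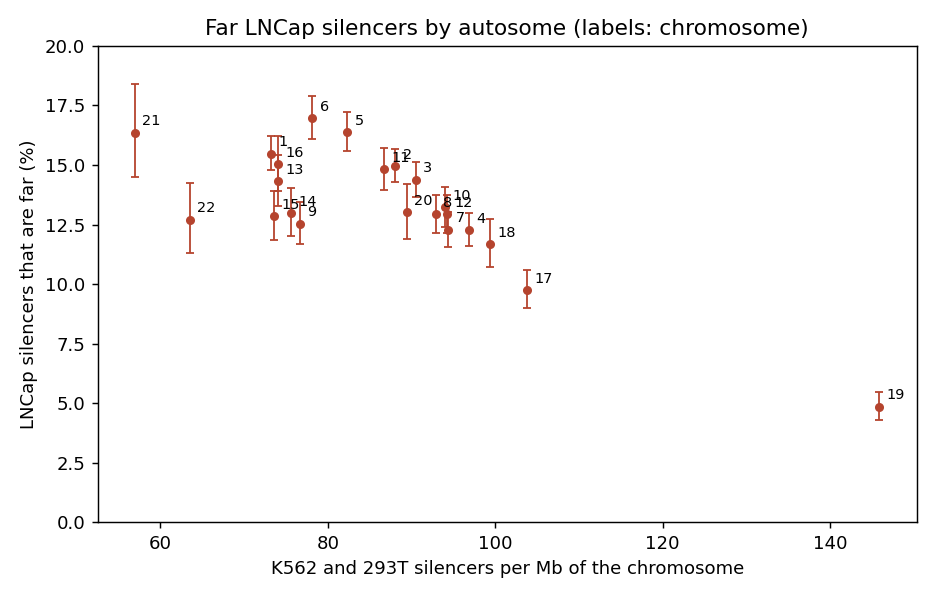
Percentage of LNCap silencers that are far (y axis, bars are 95% Wilson intervals) against the number of K562 and 293T silencers per Mb (x axis) for 22 autosomes, labelled by chromosome. Chromosome 19 stands alone at 145.9 per Mb and 4.86%, and chromosome 6 is highest at 16.96%.

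Free stretches held from 1 to 10 members. The members fell into 11266 stretches bounded by the same K562 or 293T silencers, of which 7366 (65.4%) held 1 member and 2568 held 2. Stretches with at least 2 members numbered 3900 and held 9946 members (57.5%). At least 5 members lay in 188 stretches, whose free length had a median of 68.3 kb against 37.3 kb for stretches with 1 member. Scores of at least 3 were about as frequent in members alone in their stretch (7.90% of 7366, interval 7.31 to 8.54) as in those of stretches with at least 5 (9.12% of 1053, interval 7.52 to 11.0).

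The 2 fullest stretches held 10 members each. One lay on chromosome 1, with members from 183156651 to 183257033 in a free stretch of 137.04 kb, a median score of 2.1 and a highest score of 2.9. The other lay on chromosome 2, from 230794978 to 230901806 in 130.55 kb, with a median score of 2.3 and a highest score of 4.2. The next, on chromosome 1 from 39377201 to 39419735, held 9 members in 83.05 kb with a median score of 2.0. A further 8 stretches held 8 members each. Among these, 10.6 kb of chromosome 19 (48694397 to 48704999) held 8 members in a free stretch of 32.2 kb, and 147.8 kb of chromosome 10 (71499701 to 71647511) held 8 in 227 kb. The fullest stretches thus ranged from tight groups to sparse ones.

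Tight groups of members were few. After joining LNCap silencers at most 500 bp apart, 15397 groups consisted of members alone, of which 13713 (89.1%) were a single silencer, 1536 held 2, 13 held 4 and 3 held 5, the rest holding 3. The 3 groups of 5 lay on chromosome 19 (48699873 to 48701465, inside the stretch above), chromosome 2 (80310351 to 80311101) and chromosome 6 (42144500 to 42145293). Their median scores were 2.6, 2.2 and 3.1. The group on chromosome 6 was thus above the median of all members, with a highest score of 3.4, and lay 10199 bp from the next foreign silencer at its closest.

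**Figure D5:**
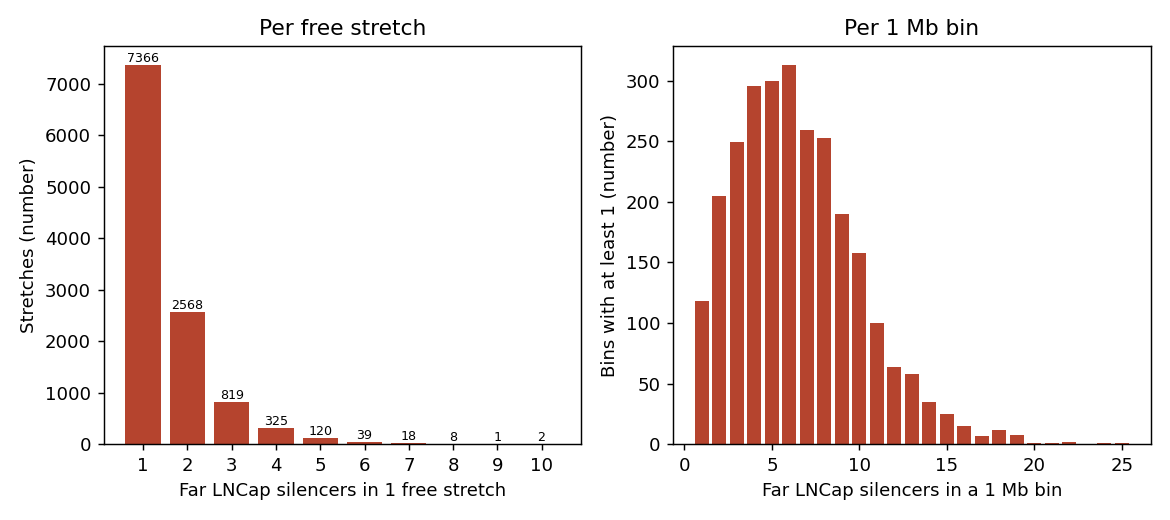
Number of free stretches by how many far LNCap silencers they hold (left, bars with counts) and number of 1 Mb bins by how many far LNCap silencers they hold (right). Most stretches hold 1 (7366) or 2 (2568), and bins hold 6 at the median and 25 at most.

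At the scale of 1 Mb, members were found in 2671 of the 2745 bins that held a LNCap silencer of this width (97.3%), with a median of 6 and a maximum of 25 per bin. Bins with at least 20 members numbered 6. The fullest was on chromosome 11 from 94000000 to 95000000, where 25 of 49 LNCap silencers were far and the K562 and 293T lists held 25 each. On chromosome 5 from 14000000 to 15000000, 24 of 50 were far, beside 36 K562 and 35 293T silencers. Chromosome 12 had 2 of these bins, starting at 108000000 (22 of 55 far; 42 K562 and 31 293T silencers) and at 119000000 (21 of 72 far; 46 and 29). The others were on chromosome 17 from 77000000 (22 of 60 far; 40 and 45) and chromosome 2 from 11000000 (20 of 52 far; 47 and 25). Each of the 6 bins held more LNCap silencers than silencers of either other line. A further 8 bins shared the next count, 19 members. The bins were picked for their counts, so their ratios are a description.

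The members with the highest finite scores were 50 bp wide in 7 of 11 cases, close to the share among all members (65.4%). The highest score, 8.0, belonged to a 50 bp silencer on chromosome 1 (52019181 to 52019231), 12020 bp from the next K562 and 22780 bp from the next 293T silencer. A score of 7.4 was listed on chromosome 13 (83496901 to 83496951), 60050 bp from K562 and 30580 bp from 293T. Of the members scoring at least 6.0 these 2 were followed by silencers on chromosome 5 (31525301 to 31525351, score 6.8) and chromosome 11 (13846481 to 13846581, score 6.7). None of these 4 had another LNCap silencer within 2 kb.

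A silencer of 297 bp, close to the upper width limit, scored 6.3 on chromosome 16 (13900158 to 13900455). A score of 6.1 was shared by 4 members, on chromosome 13 (59749349 to 59749449), chromosome 15 (27500905 to 27501150), chromosome 6 (117092251 to 117092301) and chromosome 9 (31628051 to 31628101). Tied at 6.0 were members on chromosome 2 (46969410 to 46969460) and chromosome 21 (37982901 to 37982951). The silencer on chromosome 21 was the most isolated of the 11, with 42415 bp to the next LNCap silencer. That on chromosome 6 had a neighbour 50 bp away. Near silencers reached 15.7, and 19 of them exceeded the highest finite score of a member.

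An infinite score was listed for 3 members, all 50 bp wide. They lay on chromosome 4 (54642252 to 54642302 and 131308791 to 131308841) and chromosome 6 (168225910 to 168225960). Near silencers held 10 infinite scores. How a score came to be infinite is not given in the sources used here, so these silencers were counted as at least 3 and at least 4 but not ranked.

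The 5 members farthest from the other lists had scores of 2.1 to 2.4, while the 3 next in distance scored 3.0, 3.6 and 3.2. The most distant, on chromosome 8 (7834200 to 7834250, score 2.4), lay 354150 bp from the next K562 and 389721 bp from the next 293T silencer. It was followed by a 150 bp silencer on chromosome 5 (69428101 to 69428251, score 2.4) at 219450 bp. Next were neighbouring silencers on chromosome 20 (27689151 to 27689201 and 27689251 to 27689301, score 2.1 each) at 178750 and 178850 bp. The fifth, on chromosome 8 (45648451 to 45648501, score 2.2), lay at 173600 bp. The next 3 were neighbouring silencers on chromosome 8 (44565151 to 44565201, score 3.0, and 44565050 to 44565101, score 3.6) and 1 on chromosome 19 (103651 to 103901, score 3.2). The farthest members thus included scores on both sides of 3. LNCap silencers were also distant from some of them: the next lay 386550 bp from the most distant member, 148100 bp from the second and 391617 bp from the fifth. The 2 silencers on chromosome 20 lay 50 bp from each other. How uniquely reads map to these places was not examined, so the distances need not reflect a lack of silencers in K562 and 293T. For 5 members a side had no foreign silencer up to the end of the chromosome.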

How the data were processed

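The authors deposited 1 silencer list per cell line, with chromosome, start, end and an activity score, per the file headers. The submitters' processing notes name Bowtie2, SAMtools and hg38. The sources used here do not state the region caller, its threshold, the input used, how libraries were combined or the scale of the score, and the depth is unknown. A score floor of 2 and a minimum width of 50 bp limit what scores and widths can show. Positions stand as in the lists, which do not state if starts are counted from 0 or 1.

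Broken lines and those with unknown chromosomes, ends at or before starts, or over 5000 bp of width were left out: 25 for LNCap, 12 for K562 and 58 for 293T. That left 137728, 134159 and 125249 silencers. Of the LNCap silencers, 6064 on X or Y and 2990 over 300 bp could not be members. Distances run between edges and are 0 on overlap. Densities around silencers count midpoints, and chromosome spans end at the highest end in any list. Intervals are Wilson (shares) or exact Poisson (densities).

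The members and tests were chosen with earlier results of these data known. Named silencers were, by rule, the 10 highest finite scores with ties, the 5 farthest, the fullest stretches and bins short of a tie, and the 3 autosomes with the highest and the lowest far share; other silencers, stretches and autosomes, the groups of 5 and the windows at 10 kb were picked after their values were seen. The classes by distance, width and isolation were also set after the lists were seen. No human genome or annotation was used here, so genes, base composition, repeats, motifs and sequences were not analysed. Distances and the choice of members were checked on simulated intervals: 0 of 4000 distances between lists, 0 of 4000 within a list and 0 of 1000 assignments were wrong. Computations ran in Python 3.11.15 with scipy 1.17.1, pandas 2.3.3 and numpy 2.4.6, and plots were drawn with matplotlib 3.10.9.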

Additional observations from a re-analysis of the deposited data

How the results depend on the processing

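Shares were recomputed under 8 alternatives each. The lower share of scores of at least 3 in far than in near LNCap silencers and the higher share of 50 bp silencers kept their direction in 8 of 8. All 8 kept silencers that overlapped another list among the near ones. Without these, under the main setting, 65.2% of near silencers were 50 bp wide, so the width difference was not detectable. The far share of 13.5% became 29.4% at a distance of 5 kb and 3.38% at 20 kb, 29.5% against K562 alone and 39.5% against 293T alone. It became 35.3% with only starts at 0 or 1 modulo 50 and 33.1% with only scores above each list's median, settings that leave fewer silencers in the other lists, and 13.95% with LNCap silencers within 500 bp merged. Under the same settings in that order, the chromosome 19 share of 4.86% became 15.7%, 0.721%, 12.8%, 27.5%, 26.4% and 17.6%. The share of far silencers scoring at least 3 (8.42%) became 8.92%, 7.63%, 9.23%, 10.7%, 11.0% and 20.2%, and 9.04% after merging. Near values were 12.5% against 293T alone, 25.5% with only scores above the median and 13.6% after merging. The median setting removes low scores and merging keeps the highest score of a group, so both tend to raise the share by construction. The share of 50 bp silencers (65.4%) became 66.3% at 20 kb, 62.9% against 293T alone, 64.4% on the common starts, 64.6% with all widths and 57.99% after merging. The other 7 values stayed within the main interval. The 3 results that need a human genome or annotation (base composition, genes, gene starts) were not run. No paired analysis was possible because each line has 1 list and the lists carry no replicate number. Without read counts, silencers lacking through low depth and silencers truly lacking look alike here.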

Other observations

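Chromosome X was outside the rule for members. With the same width and distance, 1006 of 5905 LNCap silencers on X were far from both other lists (17.04%). The values on X were 15.6% for K562 (861 of 5523) and 25.7% for 293T (1537 of 5992).

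The last 5 Mb of the autosomes, counted from the highest end in any list, held 4.14% of the far LNCap silencers (interval 3.85 to 4.45) and 3.99% of the near ones (interval 3.87 to 4.10). For 293T the shares were 2.59% of far (interval 2.39 to 2.80) and 3.24% of near silencers (interval 3.13 to 3.35).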
